A study of Mus musculus with 2 samples.

Results

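The 10 genes described here encode abundant proteins that hepatocytes secrete into the blood. They are albumin (Alb), transthyretin (Ttr), fetuin-A (Ahsg), the alpha-1-microglobulin/bikunin precursor (Ambp), the 5 alpha-1-antitrypsin genes Serpina1a to Serpina1e and the antichymotrypsin-like Serpina3k. They were chosen by symbol, and all 10 were among the 15348 genes listed. The study measured liver RNA of female NOG-TKm30 mice aged 16 weeks. One group was given the aromatic amine ortho-toluidine (OTD), with a first week at 0.6% and 3 further weeks at 0.3%. The control group received 0% over the same 4 weeks. RNA of 5 OTD mice made up 1 library and RNA of 3 control mice the other. With a single pool on each side, how much mice or pools vary is unknown, and every difference given here lacks a check by replicates.

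Mice of both groups carried the same transgene, a mutant herpes simplex virus thymidine kinase (clone 30) behind the transthyretin enhancer and promoter, on the immunodeficient NOG background. The Ttr promoter is active in hepatocytes, so Ttr itself is the endogenous gene that shares its control region with the transgene. Transgene reads were not analysed here. One label field on treatment gives the strain as C57BL, against NOG-TKm30 in the other fields. The column names hold the word Wild, whose meaning no label gives.

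The liver makes most plasma proteins, and hepatocytes export them through the endoplasmic reticulum and Golgi. Albumin keeps the osmotic pressure of blood and carries fatty acids, bilirubin and drugs. Transthyretin carries thyroxine and, together with retinol-binding protein, vitamin A. Alpha-1-antitrypsin is a serpin, an inhibitor that offers an exposed reactive loop to a serine protease and traps it after the cut. Humans have a single gene for it, while the mouse reference holds several copies.

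The Serpina1 copies are shown first by their sequences, because their similarity bears on every value given for a single copy. They form a cluster on chromosome 12 of GRCm38, the assembly that mm10 names, all on the minus strand, between 103728156 and 103958975, a span of 230820 bases in GENCODE M21. The annotated span of Serpina1b (103728156 to 103830373) contains that of Serpina1d (103763594 to 103773592). Their coding regions have 1239 bases each and were 96.3% to 98.5% identical in pairs. Of the 1239 positions, 86 (6.94%) differed between at least a pair of copies. The 60-base window with the most differences held 18 of them (30%), against a median of 4 over all windows. It covers coding bases 1101 to 1160 and falls in the part of the gene that codes for the reactive loop. The sequences below come from GENCODE M21 transcripts, with capitals at the positions that differ among the 5 copies. The windows lie at chr12:103853757-103853816 (Serpina1a), chr12:103728324-103728383 (Serpina1b), chr12:103895094-103895153 (Serpina1c), chr12:103763762-103763821 (Serpina1d) and chr12:103947100-103947159 (Serpina1e), each inside 1 exon.
Serpina1a: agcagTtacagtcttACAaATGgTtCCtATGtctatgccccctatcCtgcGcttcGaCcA
Serpina1b: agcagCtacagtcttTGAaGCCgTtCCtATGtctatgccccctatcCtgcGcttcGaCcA
Serpina1c: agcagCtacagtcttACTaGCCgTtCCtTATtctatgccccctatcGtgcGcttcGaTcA
Serpina1d: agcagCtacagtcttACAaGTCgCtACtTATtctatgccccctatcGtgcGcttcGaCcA
Serpina1e: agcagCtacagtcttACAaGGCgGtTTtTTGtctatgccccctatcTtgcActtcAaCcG

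Within this window the pairs were 80% to 91.7% identical, with Serpina1c and Serpina1d the closest pair. Elsewhere the copies share long runs. Of all 50-base stretches of the longest coding transcript, 74.2% in Serpina1c, 67.4% in Serpina1a, 50.9% in Serpina1d, 35.8% in Serpina1b and 35.6% in Serpina1e also occur in transcripts of other genes. For Serpina3k the share was 14.0%, most often with its neighbour Serpina3m. Alb, Ttr, Ahsg and Ambp shared 0 stretches. Reads of the Serpina1 copies can thus be split between them in the authors' counting, and the value of a single copy is less certain than its counting interval. The reference sequence is that of C57BL/6J, and the sequence of the NOG strain was not used here.

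The start regions of the same 5 copies are shown because they are nearly alike. RefSeq windows (GRCm38.p6) around annotated gene starts were used for 8 of the 10 genes, without Ttr and Serpina3k. The letters GTTAAT were searched on both strands. They were found in 6 of the 8 windows (Alb and the 5 Serpina1 copies), against 7.10% of 32851 windows of the same length. CCAAT, searched likewise, was found in all 8, against 37.4% of windows. TATAAA, searched likewise, was found in 0 of the 8, against 13.6% of windows. The windows of the 5 Serpina1 copies are nearly alike, so their matches are not independent and the counts cannot be weighed against these shares. The 120 bases around GTTAAT in each Serpina1 copy, with these letters in capitals below, were 90.8% to 97.5% identical in pairs, and 103 of the 120 positions were the same in all 5. They lie on the minus strand at chr12:103863581-103863700 (Serpina1a), chr12:103738156-103738275 (Serpina1b), chr12:103904918-103905037 (Serpina1c), chr12:103773590-103773709 (Serpina1d) and chr12:103956916-103957035 (Serpina1e), and the Alb stretch on the plus strand at chr5:90460770-90460889. A match of these letters is a description and not evidence of binding.
Alb: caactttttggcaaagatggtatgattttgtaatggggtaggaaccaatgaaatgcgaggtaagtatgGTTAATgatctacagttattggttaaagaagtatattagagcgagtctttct
Serpina1a: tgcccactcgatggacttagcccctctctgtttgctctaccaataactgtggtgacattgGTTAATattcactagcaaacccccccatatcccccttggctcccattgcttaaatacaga
Serpina1b: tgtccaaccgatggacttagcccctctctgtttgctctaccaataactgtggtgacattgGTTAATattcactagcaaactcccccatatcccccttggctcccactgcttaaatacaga
Serpina1c: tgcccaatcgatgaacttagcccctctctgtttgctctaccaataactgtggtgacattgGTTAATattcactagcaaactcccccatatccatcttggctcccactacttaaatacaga
Serpina1d: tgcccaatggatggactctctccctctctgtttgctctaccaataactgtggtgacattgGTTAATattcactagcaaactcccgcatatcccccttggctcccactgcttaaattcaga
Serpina1e: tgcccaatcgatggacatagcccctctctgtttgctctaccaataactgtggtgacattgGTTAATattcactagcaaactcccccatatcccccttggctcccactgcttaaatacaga

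Summed over the 15348 listed genes, the OTD library held 14685193 reads and the control library 13569189. Shares of library reads given here are out of these sums. Levels are CPM (reads scaled to a common library total) divided by a scaling factor of the authors, called scaled CPM, and 1 read was worth 0.0668 in OTD and 0.0751 in control. All 12 hepatocyte marker genes checked were above the minimum level, with a summed level of 48192 in OTD and 51569 in control. Markers of other liver cells were far lower. Sums were 407.2 in OTD and 439.4 in control for 10 Kupffer cell genes, 619.4 and 662.9 for 10 sinusoidal endothelial genes, 749.9 and 784.6 for 10 stellate cell genes, 74.5 and 69.5 for 10 cholangiocyte genes and 389.8 and 311.9 for 7 erythroid genes. Of these lists a single marker stood at 0, the cholangiocyte gene Tff2 in OTD, against 2 reads in control. The precursor of ribosomal RNA, Rn45s, took 2.66% of OTD reads and 1.47% of control reads. In bulk liver, fewer hepatocytes and less RNA per hepatocyte cannot be told apart.

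The 10 genes together took 10.7% of OTD reads and 11.8% of control reads. Their summed level was 105450 in OTD and 120130 in control, a ratio of 0.878 (95% counting interval 0.876 to 0.880). Intervals here rest on the split of reads between the libraries, so they hold counting error and leave out how mice, pools or preparations vary. Most of the difference in the sum belonged to albumin. Without Alb the other 9 genes summed to 35755 in OTD and 38469 in control, a ratio of 0.929 (0.926 to 0.933).

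By log2 ratio (a pseudocount of 1 added to each level), 9 of the 10 genes were lower in OTD and 1 was higher. Among all 7602 genes with a mean level of at least 10, 51.6% were lower in OTD. Among the 113 genes with a mean of at least 1000, where 8 of the 10 genes stand, 77% were lower. The median log2 ratio of the 10 genes was −0.092, from −0.23 for Alb to 0.17 for Serpina1e. The median was −0.0063 over the 7602 genes and −0.12 over the 113 most abundant. None of the 10 genes was at least 1.2-fold lower or higher, while 8.3% of the 7602 genes were at least 1.2-fold lower and 10.7% at least 1.2-fold higher. At a mean of at least 1000, 19.5% were at least 1.2-fold lower and 10.6% at least 1.2-fold higher. Larger differences were rarer in the library as a whole, with 0.908% of the 7602 genes at least 1.5-fold lower, 1.51% at least 1.5-fold higher and 0.21% past 2-fold in each direction.

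**Figure D1:**
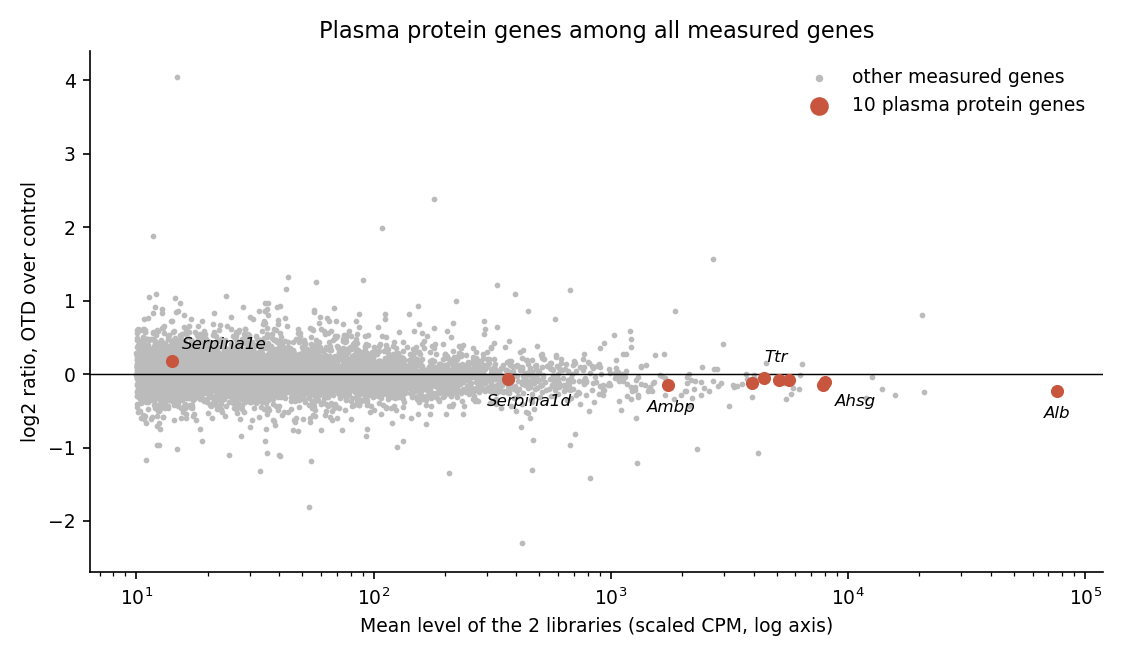
Each point is 1 gene, with the mean level of the 2 libraries in scaled CPM on a log axis and the log2 ratio of OTD over control on the vertical axis. Of the 10 plasma protein genes in red, 9 lie just below 0 and Serpina1e, near the low end of the levels, lies above it.

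Albumin was the most abundant gene of both libraries. Its level was 69694 in OTD and 81661 in control, from 1043351 and 1086963 reads. It took 7.10% of OTD reads (exact 95% interval 7.092 to 7.118) and 8.01% of control reads (7.996 to 8.025). The ratio was 0.853 (0.851 to 0.856), the lowest of the 10 genes. Even so, 849 of the 7602 genes, and 28 of the 113 most abundant, had a lower log2 ratio than Alb. Alb lies on chromosome 5, at 90460897 to 90476602 on the plus strand, and its longest coding transcript has 2034 bases in 15 exons.

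Under the authors' scaling, transthyretin had the ratio closest to 1 of the 10 genes. Ttr had a level of 4338 in OTD and 4514 in control, from 64940 and 60090 reads, a ratio of 0.961 (0.9503 to 0.9716). Its share of reads was 0.442% in OTD (0.439 to 0.446) and 0.443% in control (0.439 to 0.446), so the shares overlapped within counting error. The direction for Ttr depended on the scaling. With libraries scaled to the same total without Rn45s its log2 ratio was 0.016, and −0.0020 when Rn45s was kept.

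Fetuin-A, which binds calcium phosphate in plasma and keeps it soluble, had an Ahsg level of 7406 in OTD and 8238 in control, a ratio of 0.899 (0.892 to 0.907). Ahsg lies on chromosome 16 at 22891277 to 22899449, plus strand. Ambp codes for a single precursor that is cut into alpha-1-microglobulin, a heme-binding antioxidant, and bikunin, a protease inhibitor. Its level was 1649 in OTD and 1828 in control, a ratio of 0.902 (0.886 to 0.918). Ambp lies on chromosome 4 at 63143275 to 63154799, minus strand. The intervals of these 2 genes overlap each other, and neither overlaps that of Alb.

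Of the protease inhibitors, Serpina3k had the highest level, 7725 in OTD and 8292 in control, a ratio of 0.932 (0.924 to 0.939). It lies on chromosome 12 at 104338486 to 104346144, beyond the Serpina1 cluster. Serpina1c had 5482 in OTD and 5801 in control, a ratio of 0.945 (0.936 to 0.954). Serpina1b had 5003 in OTD and 5280 in control, a ratio of 0.947 (0.938 to 0.957). Under the authors' scaling these abundant inhibitors were lower in OTD by a similar small amount. At the same total without Rn45s their log2 ratios were closer to no difference, at −0.029 for Serpina3k, −0.0085 for Serpina1c and −0.0048 for Serpina1b.

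Serpina1a had 3777 in OTD and 4124 in control, a ratio of 0.916 (0.905 to 0.927), whose interval lies below those of Serpina1b and Serpina1c. Serpina1d had 359.8 in OTD and 377.8 in control, a ratio of 0.952 (0.916 to 0.990). Serpina1e, the scarcest copy, had 15.0 in OTD and 13.2 in control. That rests on 225 reads in OTD and 176 in control, a ratio of 1.14 (0.929 to 1.39), so its higher value in OTD was not detectable at this depth. The 5 copies summed to 14638 in OTD and 15597 in control, a ratio of 0.938 (0.933 to 0.944), which a shift of reads between copies does not change.

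**Figure D2:**
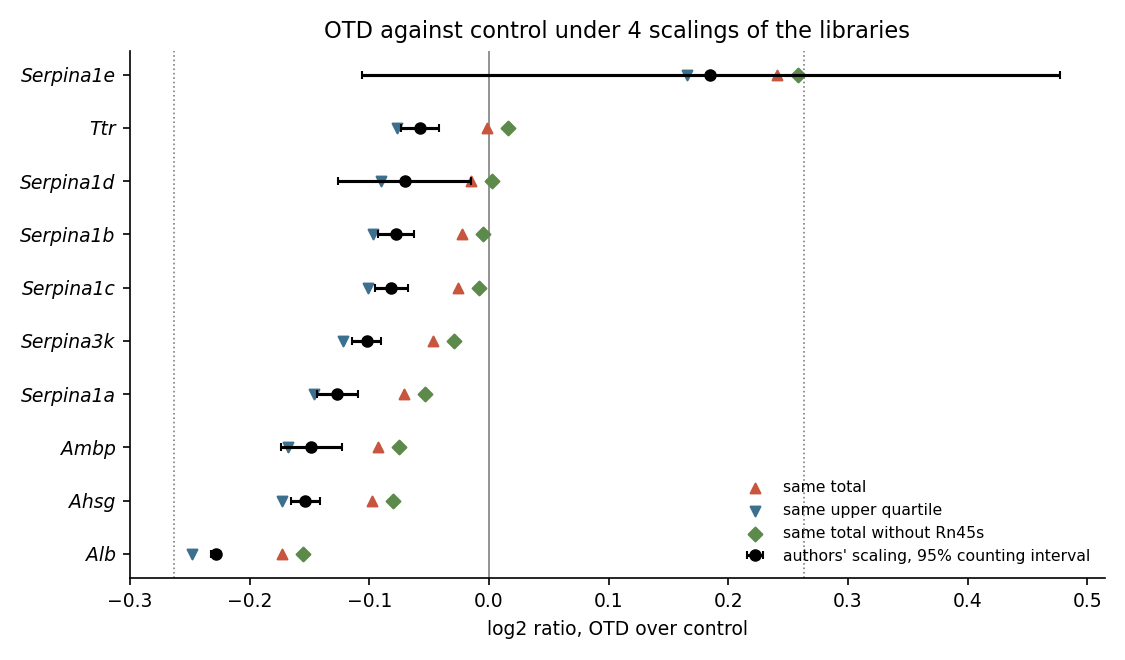
Log2 ratio of OTD over control for each gene, with no pseudocount. Black points with bars are the authors' scaling with 95% counting intervals, and triangles and diamonds are other scalings of the libraries. Dotted lines mark 1.2-fold. Every scaling drawn leaves all 10 genes inside the dotted lines, and the diamonds of Ttr and Serpina1d lie above 0.

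Scaling shifts all genes of a library alike, so the order of the ratios does not depend on it. To set that order apart from scaling, each gene was divided by the Ttr reads of its own library, a choice made after the values were seen. Alb had 16.1 reads per Ttr read in OTD and 18.1 in control, a ratio of 0.888 (0.878 to 0.898). Ahsg had 1.71 in OTD and 1.82 in control, a ratio of 0.936 (0.923 to 0.949), and Ambp 0.3801 in OTD and 0.4049 in control, a ratio of 0.939 (0.920 to 0.959). The intervals of Serpina1b, Serpina1d and Serpina1e held 1. The summed Serpina1 reads had a ratio to Ttr of 0.977 (0.964 to 0.989). Ttr had the highest ratio of the 10 genes after Serpina1e, so most ratios to Ttr lie below 1 by this choice and are given as a description. A log2 ratio lower than that of Ttr was found in 38.5% of the 7602 genes and in 72 of the 113 most abundant.

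The make-up of alpha-1-antitrypsin RNA was close to the same in both pools. Serpina1c made up 37.5% of Serpina1 reads in OTD (37.3 to 37.7) and 37.2% in control (37.0 to 37.4). Serpina1b made up 34.2% in OTD (34.0 to 34.4) and 33.9% in control (33.7 to 34.1). Serpina1a made up 25.8% in OTD (25.6 to 26.0) and 26.4% in control (26.3 to 26.6). Its intervals alone did not overlap, but they hold counting error only and are narrow at 56549 reads in OTD and 54897 in control. How far such a share varies between pools is unknown. Serpina1d made up 2.46% in OTD (2.39 to 2.52) and 2.42% in control (2.36 to 2.49). Serpina1e made up 0.103% in OTD (0.0897 to 0.117) and 0.0848% in control (0.0727 to 0.0983). Serpina1a also had the second highest share of 50-base stretches in common with other genes, mostly Serpina1c, and the part of read assignment in its 0.64-point lower share was not tested.

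**Figure D3:**
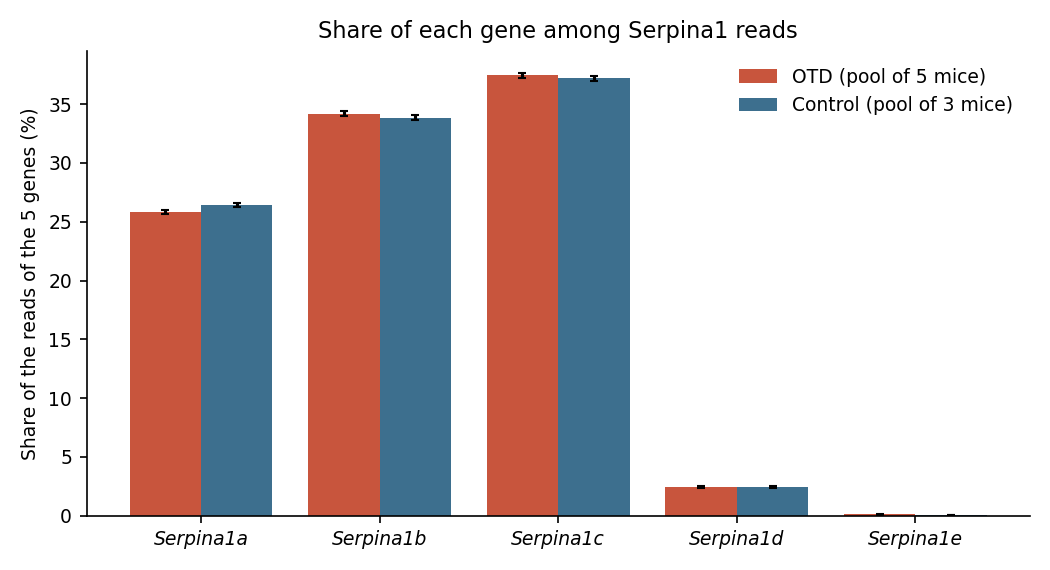
Bars give the share of each Serpina1 gene among the reads of the 5 genes in percent, with exact 95% intervals, for the OTD library on the left of each pair and the control library on the right. Serpina1a, Serpina1b and Serpina1c carry nearly all reads in both libraries, and Serpina1d 2.46% and 2.42%.

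Levels of different genes were compared per kilobase of the longest coding transcript. The order of the 10 genes was the same in both libraries. Alb led, with 34265 scaled CPM per kilobase in OTD and 40148 in control. Ahsg followed with 4991 in OTD and 5551 in control, then Serpina1c with 4028 and 4263, Serpina3k with 3755 and 4031, Ttr with 3658 and 3806, and Serpina1b with 2839 and 2997. Serpina1a stood at 2389 in OTD and 2609 in control, Ambp at 1300.5 and 1441, Serpina1d at 258.1 and 271.0, and Serpina1e at 9.54 and 8.40. With 1 library per group, whether neighbours in this order differ beyond the spread of mice is not known. Serpina1b and Serpina1e differed widely in level. The 120 bases shown for them above were 97.5% identical, the closest pair of the 5. In these windows GTTAAT lies 26 bases before the RefSeq start of Serpina1b and 78 before that of Serpina1e. Any part of the start regions in the levels was not tested.

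**Figure D4:**
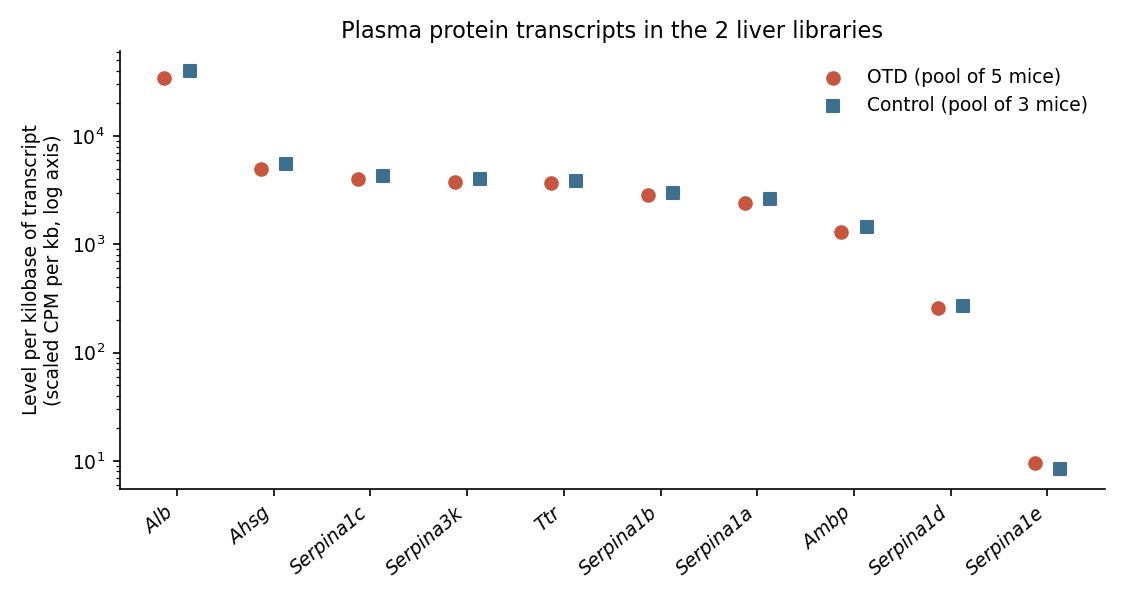
Level per kilobase of the longest coding transcript on a log axis for the 10 genes, with the OTD library (red circles) left of the control library (blue squares). Alb stands alone at the top at 34265 and 40148, 7 genes lie between 1300.5 and 5551, and Serpina1d and Serpina1e lie below.

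Other carriers and plasma proteins were listed as context, 22 genes without the members. Of these, 20 had a mean of at least 10, and 16 were lower and 4 higher in OTD. Their median log2 ratio was −0.097, against −0.0063 over all 7602 genes and −0.12 over the 113 with a mean of at least 1000. In these gene sets 51.6% and 77% were lower. Past 1.2-fold, 2 carriers were lower and 1 higher. The shares past 1.2-fold were 8.3% lower and 10.7% higher among the 7602 genes, and 19.5% and 10.6% among the 113. Without a pseudocount, scaling to the same total adds 0.056 to every log2 ratio, and 0.073 with Rn45s left out. With the pseudocount of 1, the carrier median was then −0.042 and −0.024. Transferrin (Trf), the iron carrier and the most abundant of the list, had 19235 in OTD and 22723 in control, a ratio of 0.847 (0.842 to 0.851), close to that of Alb. A1bg, a plasma glycoprotein gene with female-biased expression in mouse liver, stood furthest from 0, with 116.2 in OTD and 298.0 in control. Ttpa, which binds vitamin E inside hepatocytes and is not secreted, had 500.3 in OTD and 615.1 in control. Orm2, an acute phase glycoprotein gene, had 17.8 in OTD and 14.0 in control, a ratio of 1.27 (1.05 to 1.54). Rbp4, whose protein travels bound to transthyretin and which was named after its values were seen, had 2188 in OTD and 2345 in control, a ratio of 0.933 (0.919 to 0.948), below that of Ttr.

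Other plasma protease inhibitors and the heavy chains that join bikunin made up a list of 33 genes, of which 29 were in the table and 21 had a mean of at least 10. Of the 21, 19 were lower and 2 higher in OTD, and 4 were at least 1.2-fold lower and 1 at least 1.2-fold higher. Their median log2 ratio was −0.15 (−0.096 at the same total and −0.079 without Rn45s). Over all 7602 genes 51.6% were lower, 8.3% at least 1.2-fold lower and 10.7% at least 1.2-fold higher. At a mean of at least 1000 these shares were 77%, 19.5% and 10.6%. Pregnancy zone protein (Pzp), a broad protease trap and the most abundant, had 5225 in OTD and 6281 in control, a ratio of 0.832 (0.824 to 0.840). Its relative Mug1 had 3509 in OTD and 4370 in control, while the related Mug2 went the other way, with 80.2 in OTD and 47.0 in control, a ratio of 1.71 (1.55 to 1.88). Pzp, Mug1 and Mug2 resemble each other, and sharing of reads between them was not measured. The heavy chain gene Itih1 had 832.9 in OTD and 1016 in control, a ratio of 0.820 (0.800 to 0.840). The other abundant heavy chains, named after their values were seen, had ratios of 0.862 (0.845 to 0.879) for Itih2, 0.826 (0.806 to 0.847) for Itih3 and 0.854 (0.842 to 0.866) for Itih4. Each interval lies below that of Ambp, which codes for their light chain.

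Hepatocyte transcription factors, among them drivers of plasma protein genes, went both ways. Of 23 listed, 22 had a mean of at least 10, with 12 lower and 10 higher in OTD and a median log2 ratio of −0.0037 (0.051 at the same total and 0.069 without Rn45s). Past 1.2-fold, 6 were lower and 2 higher. Over all 7602 genes 51.6% were lower in OTD, 8.3% at least 1.2-fold lower and 10.7% at least 1.2-fold higher. Hnf4a, the most abundant and a nuclear receptor needed for hepatocyte gene expression, had 669.9 in OTD and 948.1 in control, a ratio of 0.707 (0.688 to 0.725). Foxa3, a forkhead factor, had 35.1 in OTD and 60.9 in control, a ratio of 0.577 (0.516 to 0.644). Tbx3, a Wnt-responsive factor, had 52.5 in OTD and 78.9 in control.

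Genes for entry of secreted proteins into the endoplasmic reticulum (signal recognition particle, translocon, signal peptidase and glycan transfer) numbered 29, and 28 had a mean of at least 10. Of the 28, 19 were higher and 9 lower in OTD, and 0 were past 1.2-fold by the log2 ratio. Their median log2 ratio was 0.072 (0.13 at the same total and 0.14 without Rn45s). Over all 7602 genes 51.6% were lower, 8.3% at least 1.2-fold lower and 10.7% at least 1.2-fold higher. Ssr3, a translocon-associated subunit and the most abundant, had 230.4 in OTD and 213.7 in control, a ratio of 1.08 (1.03 to 1.13). Stt3a, a catalytic subunit of the enzyme that adds N-glycans, had 126.9 in OTD and 105.9 in control, a log2 ratio of 0.26. Spcs3, of the signal peptidase, and Ostc, of the glycan transfer complex, had log2 ratios of 0.26 each, and at the same total these 3 were among the genes of the list past 1.2-fold.

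**Figure D5:**
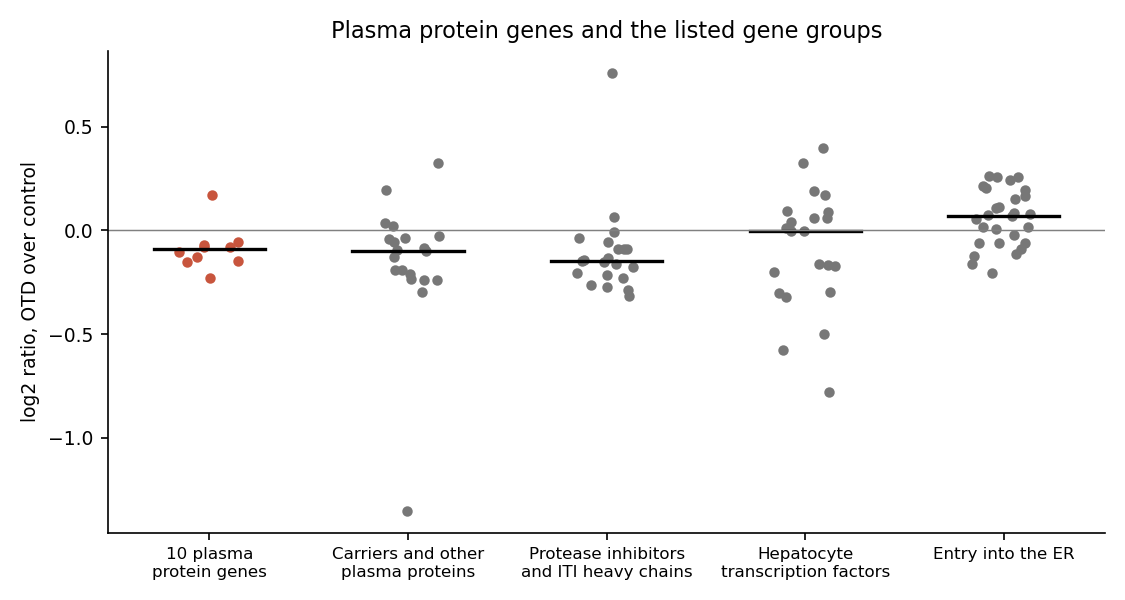
Each point is the log2 ratio of OTD over control of 1 gene with a mean level of at least 10, and black bars are medians, for the 10 plasma protein genes and 4 listed groups. Medians are −0.092 for the 10 genes, −0.097 for carriers, −0.15 for inhibitors, −0.0037 for transcription factors and 0.072 for endoplasmic reticulum entry genes, in the authors' scaling.

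In the order of mean levels, most genes next to the 10 plasma protein genes were lower in OTD, and a few were higher. Among the 113 genes with a mean of at least 1000, 77% were lower. Mup10, a major urinary protein gene directly below Ttr, had 2685 in OTD and 5658 in control. Cyp3a11, a drug-metabolizing P450 directly above Ttr, had 4754 in OTD and 4268 in control, a ratio of 1.11 (1.10 to 1.13). The complement gene C3, just above Serpina3k, had 10631 in OTD and 13290 in control, and the fibrinogen gene Fga, just above Serpina1b, had a ratio of 0.945 (0.935 to 0.954). Among the abundant genes whose log2 ratio lay nearest to the median of the 10 were Slc38a3 (−0.087), Atp5b (−0.098), Kng1 (−0.086) and Ndrg2 (−0.098), each within 0.0066 of it. With 2 libraries this likeness rests on 1 number per gene.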

How the data were processed

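Per the file headers and values, the authors deposited 1 normalized signal (scaled read counts) for each gene symbol and library. The tools named in the submitters' processing notes are edgeR, RSEM, Bowtie2 and Trimmomatic 0.38, with mm10 as the build. Their roles, the annotation release, any gene filter and the use of strand are not stated there. Per the labels' protocols, ribosomal RNA was depleted from 200 ng of RNA and the kit kept strand. In both columns 100% of values were whole multiples of 1 read (tolerance 1e-06), so reads were recovered. With 1 library per group a count test has no residual degrees of freedom, and none was run: it gives no calls and no p-values.

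Computed here were log2 ratios (pseudocount 1), counts at 1.2-fold, 1.5-fold and 2-fold at a mean of at least 10, exact Clopper-Pearson intervals of 95% on reads, and for ratios to Ttr a normal interval on the log scale. None of the 10 genes passed any of these folds. Positions, lengths and shared 50-base stretches came from GENCODE M21 (GRCm38), and start regions from RefSeq. Named genes were the members, their neighbours in level, the 5 genes nearest to their median, and in each list the most abundant gene and the 3 with the largest absolute log2 ratio. Members and lists were chosen with earlier results of these data known. Some genes that these rules name are not reported here. One listed gene, Tf, was matched to the symbol Trf. The method was tested on simulated reads that held counting error only. Variation between pools was not simulated, and the planted changes were larger than any seen in the 10 genes. Work was done in Python 3.11.15 with scipy 1.17.1, numpy 2.4.6, pandas 2.3.3 and matplotlib 3.10.9.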

Additional observations from a re-analysis of the deposited data

How the results depend on the processing

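Under 7 alternatives (pseudocounts of 0.5 and 10 and 5 scalings of the libraries), 0 of the 10 genes passed 1.2-fold in either direction. The count of 9 lower genes held except with Rn45s left out of a common total, where it was 7, with Ttr (0.016) and Serpina1d (0.0025) above 0. Of 70 values of single genes, 33 moved beyond the counting interval and 2 changed sign. The median log2 ratio of −0.092 became −0.036 at the same total, −0.019 at the same total without Rn45s, −0.053 at the same total without the 10 genes, −0.11 at the same upper quartile and −0.13 with the Serpina1 genes counted as 1. In the same order of the 4 scalings, the log2 ratio of the summed level (−0.19) became −0.13, −0.11, −0.15 and −0.21, and that of the Serpina1 sum (−0.092) became −0.036, −0.019, −0.053 and −0.11. Scaling to a median log2 ratio of 0 gave −0.18 and −0.083 for these sums. The shifts under the scalings follow from the factor itself, which without a pseudocount adds the same amount to every log2 ratio. With the pseudocount of 1 it adds somewhat less for genes at low levels. At the same total and without Rn45s, the list medians became −0.042 and −0.024 for carriers, −0.096 and −0.079 for inhibitors, 0.051 and 0.069 for transcription factors and 0.13 and 0.14 for endoplasmic reticulum entry. Of genes past 1.2-fold, 631 lower and 810 higher turned into 242 and 242 for means of 50 or more, 22 and 12 for means of 1000 or more and 1728 and 2331 without a filter, as fewer or more genes entered. No replicate could be left out, since each group had 1 library. No paired analysis was possible because each group had 1 library. Under the authors' scaling the counting interval of Serpina1e held 1, and relative to Ttr those of Serpina1b and Serpina1d also did. Serpina1b rested on 74895 reads in OTD and 70284 in control, and its ratio to Ttr was 0.986 (0.971 to 1.001). With many reads such an interval can leave out 1 at a small difference. The share of all genes whose interval held 1 is not given here.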

Other observations

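Low-level relatives of the Serpina3k gene, named after their values were seen, lay under the minimum mean of 10 and entered no count above. Serpina3g, a serpin gene known from immune cells, had 2.67 in OTD and 4.58 in control, from 40 and 61 reads, a ratio of 0.583 (0.381 to 0.883). Serpina3i had 1.34 in OTD and 2.10 in control, a ratio of 0.635 (0.339 to 1.17). Serpina3a had 0.601 in OTD and 1.05 in control, a ratio of 0.572 (0.218 to 1.42). Serpina3f went the other way, with 1.40 in OTD and 1.28 in control, a ratio of 1.10 (0.552 to 2.22). Among the more abundant members of that cluster, Serpina3m had 575.2 in OTD and 550.7 in control, a ratio of 1.04 (1.01 to 1.08), and Serpina3n, an acute phase gene, 712.5 in OTD and 757.8 in control, a ratio of 0.940 (0.915 to 0.966). The acute phase gene Orm3 had 8.48 in OTD and 4.28 in control, a ratio of 1.98 (1.44 to 2.76), from 127 and 57 reads. Albumin's neighbour gene Afp, the fetal counterpart of albumin, stood at 0.468 in OTD and 0.301 in control, from 7 and 4 reads.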
